A study of Mus musculus with 14 samples.

Results

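The transcriptome of mouse bone marrow cells carrying SETBP1-D868N was compared after 4 days with the MYST acetyltransferase inhibitor PF-9363 and after 4 days with its solvent, DMSO. The comparison used 8 of the series' 14 libraries, chosen by their titles as 4 treated with 2.5 µM PF-9363 and 4 treated with DMSO. Of 55367 gene symbols in the table of counts, 13456 passed an expression filter and were tested. All 8 libraries came from primary lineage-negative cells of mice with a wild-type genotype, the immature marrow fraction left after cells with mature lineage markers are removed. Every culture, the DMSO controls included, had been transduced with a pSMAL lentivirus encoding SETBP1-D868N and was kept in IMDM with SCF, IL6 and IL3. No library of cells without SETBP1-D868N was treated, so the data do not separate an action of PF-9363 on these cells from its action on marrow cells in general. For each library 100 ng of total RNA was used, and Novogene made the libraries from polyadenylated RNA and sequenced them. The series' other experiment compared 3 luciferase controls with 3 libraries of SETBP1-D868N cells, made from 500 ng of RNA, and is used here only to set the same genes' values side by side.

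SETBP1 is a DNA-binding protein, and D868N lies in the short stretch that marks the protein for destruction. Mutations there stabilise it and recur in myeloid leukaemias. The MYST family of histone acetyltransferases comprises Kat5, Kat6a, Kat6b, Kat7 and Kat8. Kat6a and Kat6b act with Brpf scaffold proteins and acetylate histone H3, Kat7 acts on H3 and H4 with Brpf or Jade scaffolds, and Kat8 and Kat5 acetylate H4 in the Msl, Nsl and NuA4 complexes. PF-9363 is a small molecule that competes with acetyl-CoA in Kat6a and Kat6b and, at higher doses, in Kat7. In blood formation Kat6a and Kat7 are known for keeping Hox genes and stem cell programmes active.

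The libraries held 7083731 to 10359093 counts. By unscaled library totals, a count of 0 allows up to 0.290 to 0.424 CPM (counts relative to the library total). Other CPM values are scaled by the TMM method, unless unscaled totals are named. Over log2(CPM + 0.5) the correlation between libraries was 0.987 to 0.992 within groups and 0.848 to 0.881 between them. The first principal component held 90% of the variance and separated the groups, with the DMSO libraries between -70.8 and -66.2. On this component PF-9363 libraries 1 and 2, at 63.9 and 59.8, lay nearer to DMSO than libraries 3 and 4, at 75.6 and 75.1. The second held 2.23%, and on it PF-9363 libraries 1 and 2 lay at -11.9 and -18.2, libraries 3 and 4 at 20 and 7.15, and the DMSO libraries between -1.69 and 3.41. PF-9363 libraries 1 and 2 thus stood apart from 3 and 4, most of all in the mitosis genes described below, and results that rest on those genes are also given without each pair. Of 8 markers each of T cells, B cells, stroma and endothelium, 1, 2, 2 and 2 passed the filter, and Cd3e, Col1a2 and Emcn had 0 counts in all 8 libraries. Summed levels were 1.36 to 2.58 CPM with DMSO and 1.74 to 3.22 with PF-9363 for T cells, 12.5 to 15.97 and 1.71 to 3.61 for B cells, and 3.45 to 4.31 and 6.23 to 8.24 for stroma. By log2 fold change of PF-9363 against DMSO, Cd79b and Vpreb1 (-1.52) of B cells were lower, Pdgfrb (1.49) of stroma was higher, and Pecam1 (-0.43) and Egfl7 (-0.93) of endothelium were lower, each called by the test described below. Pecam1, which myeloid cells also express, made nearly all of the endothelial sum, at 516 to 558 CPM with DMSO and 378 to 417 CPM with PF-9363. The mouse gene Setbp1 had 2, 1, 0 and 0 counts in the DMSO libraries and 0 in each PF-9363 library, so the counts do not show the introduced SETBP1-D868N, whose species of origin is not given in the sources used here, nor whether its level differed with PF-9363. The labels do not say whether the replicates were separate cultures or animals, so p-values measure the spread between these libraries, which may be technical.

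With PF-9363 the messages of cell division and of primary granules were lower, and those of macrophages, mast cells, lysosomes and inflammatory signalling were higher. The change was broad: 10228 of the 13456 tested genes, 76.0%, differed at an adjusted p under 0.05 in edgeR's quasi-likelihood test. Of these, 4921 (36.6% of tested genes) were higher with PF-9363 and 5307 (39.4%) were lower, and 2126 (15.8%) and 2433 (18.1%) differed by at least 2-fold. In 9459 genes (70.3%) the 4 treated and 4 control libraries did not overlap, with 34.0% of tested genes higher and 36.3% lower in this way. The larger the change, the larger the share of lower genes: 260 genes were at least 8-fold higher and 346 at least 8-fold lower, and 20 were at least 32-fold higher and 67 at least 32-fold lower, classes that include genes with almost no counts in a group, whose fitted folds depend on the model's prior count. The median log2 fold change of all tested genes was -0.04. With libraries scaled by their totals alone that median moved by -0.23, and the calls became 3775 higher and 6653 lower (36.2% of calls higher, against 48.1% under TMM). Shares above 36.6% higher or 39.4% lower in a gene list below are read against these backgrounds.

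Over all gene symbols counted, tested or not, the messages also became less even. Libraries with PF-9363 had fewer genes at 1 CPM or more by unscaled library totals, 12950 ± 47.7 against 13370 ± 94.0 (SD, n = 4 each). The TMM factors were 1.07 to 1.09 with DMSO and 0.905 to 0.940 with PF-9363, and this count was not repeated under TMM scaling. The 100 most abundant genes took 22.1% ± 0.646 of counts with PF-9363 and 18.7% ± 0.190 with DMSO. Genes encoded in the mitochondrion took 1.28% ± 0.0824 and 0.974% ± 0.0954. For each of these measures the groups did not overlap (exact permutation test, two-sided, p = 0.0286, the smallest that 4 against 4 allows, 0.0357 after adjustment over 5 measures). Total counts did not differ beyond their spread (exact permutation p = 0.486). Genes higher with PF-9363 gained 344200 CPM in all, of which the 10 genes with the largest gains made 13.9%. Genes lower with PF-9363 lost 183500 CPM in all, and these sums need not balance under TMM scaling.

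**Figure D1:**
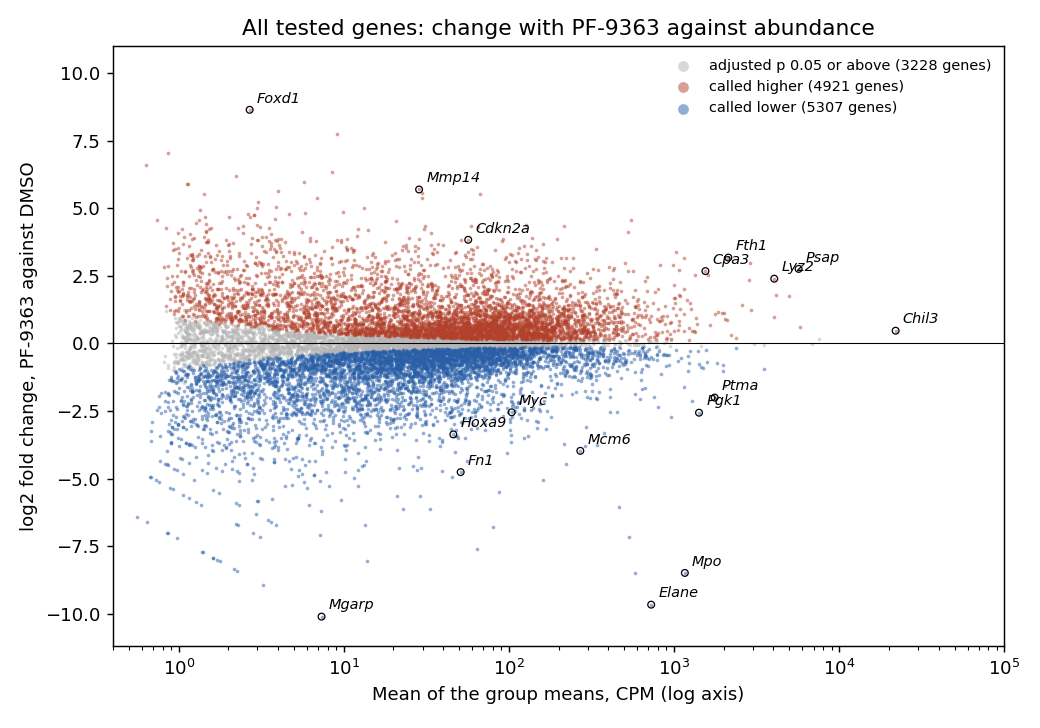
Log2 fold change of PF-9363 against DMSO (y axis) against the mean of the 2 group means in CPM (x axis, log scale) for 13456 tested genes, with red points called higher, blue points called lower and grey points not called. Genes with at most 3 counts in every library of a group sit at fitted values that depend on the model's prior count, which gives the lines of points at the lower left; Elane and Mpo lie near the bottom at high abundance and Psap, Lyz2 and Fth1 above 0 among the most abundant genes.

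**Figure D2:**
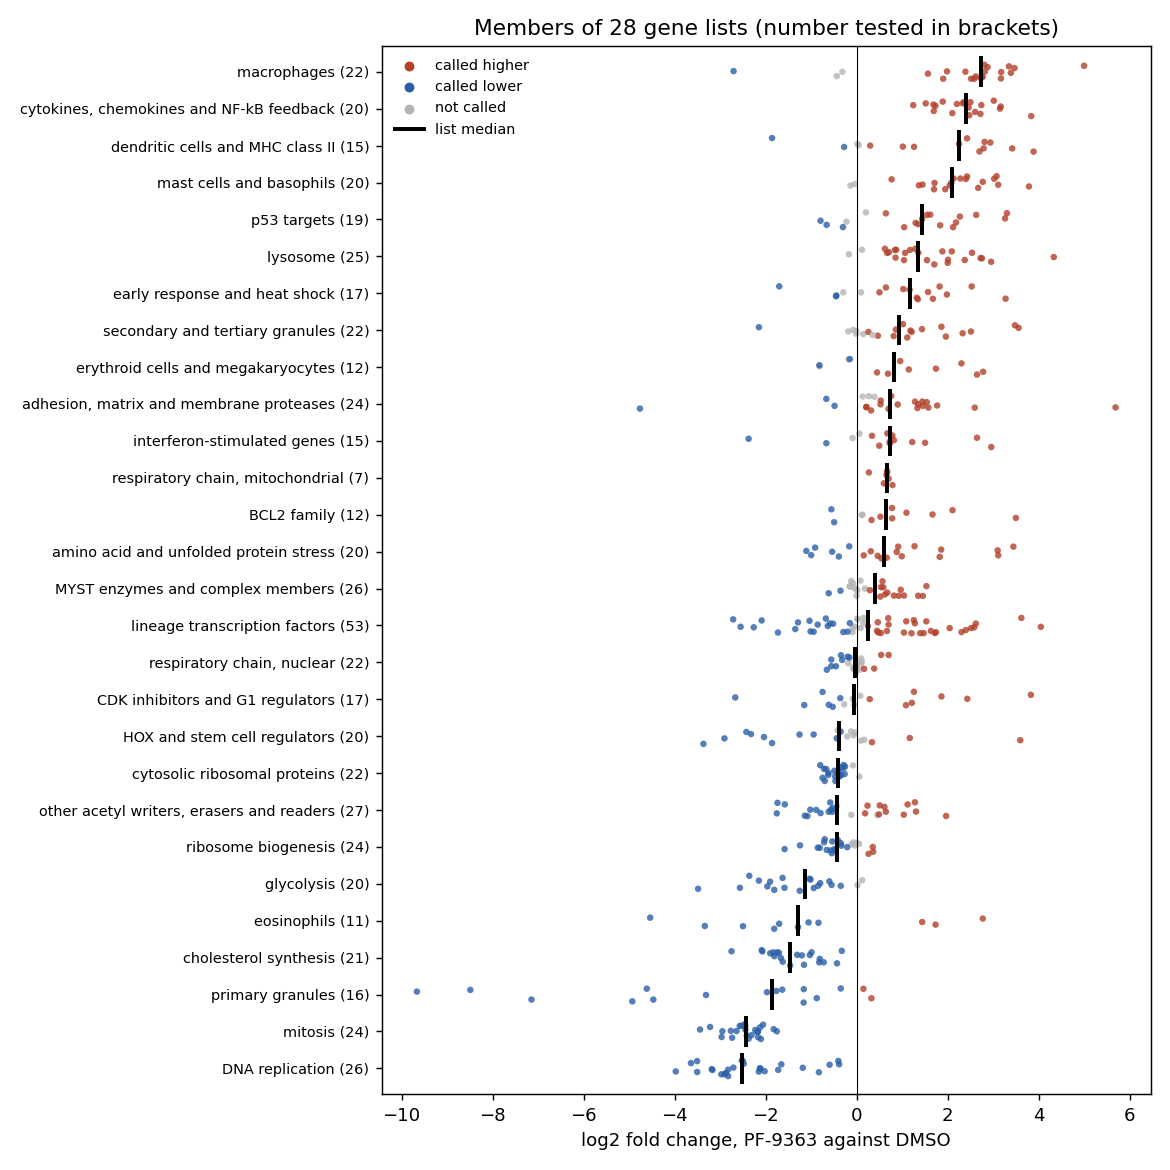
Log2 fold change of PF-9363 against DMSO (x axis) for each tested member of 28 gene lists (rows, number tested in brackets), with red points called higher, blue points called lower, grey points not called and a black bar at the list median. All points of the DNA replication, mitosis and cholesterol rows lie below 0, and all points of the cytokine row above it.

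Genes that copy DNA and divide the cell fell as a block. All 26 tested DNA replication genes were lower with PF-9363, with a median log2 fold change of -2.51, and so were all 24 mitosis genes, with a median of -2.43. The background is 39.4% lower and a median of -0.04. Levels summed over the list went from 3261 to 665.8 CPM for replication and from 3256 to 610.3 CPM for mitosis. The largest falls in replication were in Mcm6, a subunit of the replicative helicase, and Cdc6, which loads that helicase on DNA. Mcm6 (chr1:128331590-128359664) measured 538, 483, 505 and 511 CPM in DMSO libraries 1 to 4 and 33.7, 43.3, 27.9 and 24.8 CPM in treated libraries 1 to 4 (log2 fold change -3.97 ± 0.14, adjusted p = 5.74e-10). Here and below, changes of a gene are log2 fold changes of PF-9363 against DMSO, with the standard error after ±. Cdc6 measured 82.6, 59.4, 79.1 and 70.7 CPM and 7.83, 7.35, 4.36 and 3.58 CPM in the same order (-3.64 ± 0.20, adjusted p = 4.42e-09). Both genes were several fold lower in every treated library, with no overlap. The other helicase subunits, Mcm2, Mcm3, Mcm4, Mcm5 and Mcm7, changed by -2.13, -2.50, -2.90, -3.50 and -2.82 on the log2 scale. Among enzymes that supply nucleotides, Rrm1 and Tk1 changed by -3.17 and -3.50, and Tyms by -0.83. The smallest changes of the list were in Gins2 (-0.38 ± 0.08), E2f1 (-0.40 ± 0.08) and E2f2 (-0.59 ± 0.08), of which the last pair are transcription factors of S-phase genes.

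In mitosis the largest falls were in Aurkb and Bub1, kinases that watch over chromosome attachment. Aurkb went from 87.3, 82.7, 85.9 and 89.7 CPM in the DMSO libraries to 10.6, 9.41, 5.29 and 5.97 CPM in the PF-9363 libraries (log2 fold change -3.44 ± 0.13, adjusted p = 2.26e-15). Bub1 went from 131, 129.7, 132 and 126 to 16.3, 19.5, 9.81 and 9.65 CPM (-3.22 ± 0.18, adjusted p = 8.82e-08). Both were lower in all 4 treated libraries, and in both PF-9363 libraries 3 and 4 were lowest. Cdk1, the kinase that starts mitosis, changed by -2.76 ± 0.24 and its partner Ccnb2 by -2.97 ± 0.26. Ccnb1, the partner with the larger spread, measured 46.4, 59.0, 14.6 and 19.5 CPM with PF-9363 against 184, 173, 181 and 161 CPM with DMSO, and was among the 5 genes that varied most between the treated libraries. Taken one library at a time against the DMSO mean, the median of the mitosis list was -2.03 and -1.79 in PF-9363 libraries 1 and 2 and -2.98 and -3.11 in libraries 3 and 4. For replication the same medians were -2.196, -2.303, -2.658 and -2.741. All 26 and all 24 genes were still called lower without libraries 1 and 2 (medians -2.90 and -3.13) and without libraries 3 and 4 (-2.31 and -1.94).

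**Figure D3:**
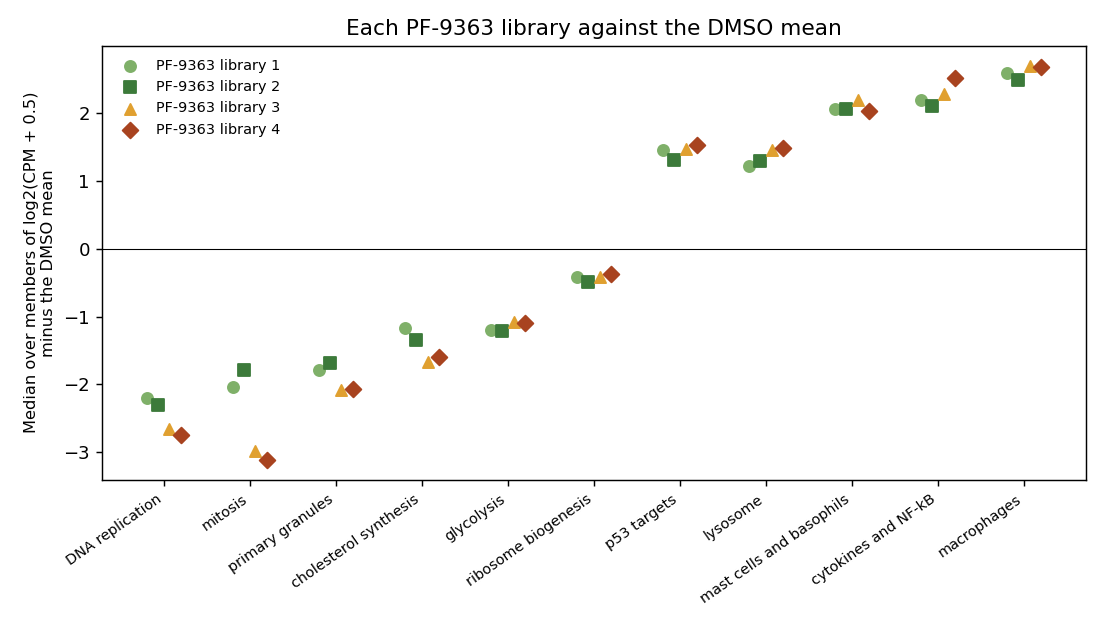
For 11 gene lists (x axis), the median over members of log2(CPM + 0.5) in each PF-9363 library minus the DMSO mean (y axis). Circles and squares are PF-9363 libraries 1 and 2, triangles and diamonds libraries 3 and 4; the mitosis medians spread from -1.79 to -3.11 while the macrophage medians lie close together.

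Promoter sequences are shown for 4 genes of lists that moved together, because such lists are known to share short promoter elements. The windows shown were chosen among those that hold the motifs marked, so they do not show how common the motifs are. They come from RefSeq (GRCm38.p6) and run from 250 bases before to 50 bases after the start of the gene, 5′ to 3′ on the gene's strand. Capitals mark TTTGAA (the core of the CHR element of mitotic genes) and CCAAT (the NF-Y box) in Ccnb2 and Cdk1, and E2F-type motifs in Mcm6, searched as TTCCCGC, as TTGGCGC and as TTCGCGC. In Ctsd, the lysosomal protease cathepsin D, capitals mark the E-box CACGTG. A motif is in capitals where it or its reverse complement occurs, and overlapping matches run together. The positions are chr9:70421505-70421804, chr10:69352863-69353162, chr1:128359656-128359955 and chr7:142387778-142388077, all on the minus strand.
Ccnb2: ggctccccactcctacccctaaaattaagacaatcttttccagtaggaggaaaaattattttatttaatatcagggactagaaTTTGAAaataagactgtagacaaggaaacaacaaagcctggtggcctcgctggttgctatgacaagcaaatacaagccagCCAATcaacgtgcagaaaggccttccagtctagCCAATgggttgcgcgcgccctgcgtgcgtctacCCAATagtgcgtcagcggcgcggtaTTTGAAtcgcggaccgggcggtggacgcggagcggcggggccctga
Cdk1: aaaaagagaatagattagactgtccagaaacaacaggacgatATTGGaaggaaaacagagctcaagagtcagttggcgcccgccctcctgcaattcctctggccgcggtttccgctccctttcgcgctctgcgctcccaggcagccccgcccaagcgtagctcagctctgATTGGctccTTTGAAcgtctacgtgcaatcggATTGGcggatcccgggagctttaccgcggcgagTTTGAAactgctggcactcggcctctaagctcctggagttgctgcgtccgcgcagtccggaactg
Mcm6: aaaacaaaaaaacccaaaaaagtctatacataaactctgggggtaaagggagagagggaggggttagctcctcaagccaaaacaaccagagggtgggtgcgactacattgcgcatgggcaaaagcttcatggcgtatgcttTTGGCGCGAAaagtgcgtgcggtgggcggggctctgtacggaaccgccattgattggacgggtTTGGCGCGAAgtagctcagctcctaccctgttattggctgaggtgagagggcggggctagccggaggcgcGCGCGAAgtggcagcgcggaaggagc
Ctsd: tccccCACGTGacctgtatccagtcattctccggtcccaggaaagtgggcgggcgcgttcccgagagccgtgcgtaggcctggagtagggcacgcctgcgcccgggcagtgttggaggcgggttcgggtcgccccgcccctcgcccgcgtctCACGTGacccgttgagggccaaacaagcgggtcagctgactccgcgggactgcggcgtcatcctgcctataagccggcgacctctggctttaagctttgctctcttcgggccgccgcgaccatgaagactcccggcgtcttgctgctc

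Across the tested genes 9894 had such a window, with 12600 windows in all, and both strands were searched. A gene can have more than 1 window. In the lists, 18 of 24 mitosis, 21 of 26 DNA replication and 17 of 25 lysosome genes had a window. For cholesterol synthesis 14 of 21 genes had one, and for ribosome biogenesis 19 of 24. Aurkb, Ctsb, Atp6v0d2 and Fdps were among those without. TTTGAA was in 12.7% of all windows and in 66.7% of the 18 windows of mitosis genes. CCAAT was in 37.9% of all windows, in 83.3% of mitosis windows, in 65.2% of the 23 DNA replication windows and in 82.4% of cholesterol synthesis windows. At least 1 of the 3 E2F-type motifs was in 14% of all windows and 60.9% of replication windows. CACGTG was in 9.86% of all windows and in 36.4% of the 22 lysosome windows. TCACGTG, the longer form that holds CACGTG, was in 5.84% and 31.8%. For genes at least 2-fold lower as a whole the shares were 17.1% for TTTGAA and 18% for the E2F-type motifs. For genes at least 2-fold higher they were 12.0% and 8.97%. For CACGTG the shares were 7.73% for the lower genes and 9.47% for the higher genes, both below the 9.86% of all windows. Among lists that fell, CACGTG was in 23.5% of cholesterol synthesis windows, 4.35% of DNA replication windows and 5.56% of mitosis windows. Its share in windows of ribosome biogenesis genes, which mostly fell, lay above that of all windows. These are matches of letters and were not tested as binding sites.

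CDK inhibitors and G1 regulators did not move as a list, while single members changed strongly. Among 17 tested 7 were higher, 6 lower and 4 not called (median -0.05, which became 0.01 without DMSO library 4). Over all tested genes 36.6% were higher and 39.4% lower, so this split lay near the background. Cdkn2a, the locus of p16 and of the p53 activator p19Arf, was at 6.64, 8.38, 6.37 and 8.26 CPM with DMSO and 90.4, 91.0, 133 and 110.0 CPM with PF-9363 (3.83 ± 0.14, adjusted p = 2.56e-14). Its neighbour on chromosome 4, Cdkn2b, which encodes p15, was at 1.98, 2.195, 2.34 and 2.54 and 10.5, 10.2, 13.9 and 14.9 CPM (2.43 ± 0.20, adjusted p = 6.68e-12). Both rose without overlap. Counts per gene symbol do not tell p16 from p19Arf. Cdkn1a, which encodes p21, rose by 1.26 ± 0.08 and Cdkn1b, which encodes p27, was not called (-0.08 ± 0.07, adjusted p = 0.252). With edgeR under scaling by library totals Cdkn1b was called lower (-0.314, adjusted p = 0.000167). Cdkn2c, which encodes p18, fell from 49.2, 41.7, 50.6 and 49.4 to 9.48, 8.77, 5.45 and 5.97 CPM (-2.67 ± 0.13). The G1 kinases Cdk4 and Cdk6 fell, with log2 fold changes of -0.61 and -0.75, and cyclin Ccnd2 rose by 1.87. Of 19 tested p53 targets 14 were higher and 3 lower (median 1.44). Phlda3, an inhibitor of Akt, rose from 0.397, 0.299, 1.03 and 1.81 to 7.11, 9.41, 10.7 and 9.22 CPM (3.30 ± 0.32) and the kinase Plk2 from 2.38, 3.89, 3.18 and 5.17 to 33.1, 31.5, 38.9 and 38.5 CPM (3.26 ± 0.16). Bax and Bbc3, which promote cell death, rose by 1.55 and 2.12. The 3 that fell were Polk, a polymerase that copies past DNA damage (-0.79 ± 0.13), Pmaip1 (-0.66 ± 0.08) and Ei24 (-0.30 ± 0.08).

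The Hoxa genes fell, while other stem cell regulators moved in both directions or were not called. Of 20 tested HOX and stem cell genes 3 were higher and 10 lower (median -0.38), of which 2 and 7 by at least 2-fold. Over all tested genes 15.8% were at least 2-fold higher and 18.1% at least 2-fold lower. Flt3 (-1.86), given below with the dendritic cell genes, was also among the lower members. Hoxa9 (chr6:52223100-52231089), which sustains the growth of leukaemia cells, measured 89.5, 77.3, 92.6 and 76.5 CPM with DMSO and 7.42, 9.54, 7.78 and 7.92 CPM with PF-9363 (-3.37 ± 0.11, adjusted p = 2.86e-21). Hoxa5 measured 4.86, 3.79, 3.65 and 4.26 and 0.412, 1.03, 0 and 0.651 CPM (-2.90 ± 0.40). Hoxa3, Hoxa7 and Hoxa10 fell, with log2 fold changes of -2.32, -2.42 and -2.03. The 5 tested Hoxa genes were thus lower in each treated library than in every control. Hoxb3 was at -0.44 ± 0.20 (adjusted p = 0.0442), a call lost without DMSO library 2, 3 or 4 or PF-9363 library 1, 3 or 4 (adjusted p from 0.0532 to 0.111), and Hoxb4 was not called (-0.20 ± 0.17). The call of Hoxb3 was also lost with DESeq2 (adjusted p = 0.0779) and in edgeR with RLE size factors (adjusted p = 0.0574). In edgeR under scaling by library totals Hoxb4 was called lower (-0.434, adjusted p = 0.0217). Meis1, the partner of Hoxa9, was slightly higher (0.34 ± 0.12, adjusted p = 0.012), a call lost without DMSO library 1 or 2 or PF-9363 library 4 (adjusted p = 0.0504, 0.0527 and 0.0699) and under scaling by library totals. Procr, a surface protein of blood stem cells, was near the detection limit with DMSO at 0.0992, 0.200, 0.375 and 0 CPM and reached 2.27, 1.93, 1.40 and 2.93 CPM (3.60 ± 0.54). Mecom, a stem cell transcription factor, was at 1.09, 1.20, 1.22 and 0.998 and 3.09, 2.58, 2.02 and 2.39 CPM (1.17 ± 0.32, adjusted p = 0.00181), a call that was lost without PF-9363 libraries 1 and 2 (adjusted p = 0.0513).

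Among 53 tested lineage transcription factors 27 were higher and 18 lower (median 0.25). At the low end Myb, a factor of blood progenitors, went from 323, 326, 321 and 288 CPM to 53.5, 65.0, 32.4 and 39.9 CPM (-2.71 ± 0.20, adjusted p = 1.06e-05) and Myc, a factor of cell growth, from 187, 173, 176 and 176 to 28.4, 31.6, 27.4 and 33.7 CPM (-2.55 ± 0.07, adjusted p = 4.9e-22). Gfi1 and Cebpe, which drive granulocyte maturation, fell, with log2 fold changes of -2.26 and -1.29, and Cebpa was at -0.52. Tcf4, Bcl11a and Sox4 fell, with log2 fold changes of -2.09, -1.73 and -1.35. At the high end was Klf4, a factor of monocytes, which went from 4.66, 6.19, 5.99 and 7.08 to 61.4, 64.2, 82.0 and 88.6 CPM (3.62 ± 0.14, adjusted p = 7.15e-16). Maf, a factor of macrophages, rose by 2.52, and Irf5 and Irf8 by 1.26 and 1.04. Gata2, Mitf and Tal1, factors of mast cells, erythroid cells or megakaryocytes, rose by 2.40, 2.05 and 2.31, and Gata1 by 1.74. Gata3 held 0 to 2 counts in the DMSO libraries and 1.65, 1.29, 3.11 and 2.82 CPM with PF-9363, at least 7.73-fold higher against a floor of 3 counts per library. Spi1, the master factor of myeloid cells, rose by only 0.67 ± 0.06. The other 8 were not called, among them Runx3 (-0.09 ± 0.08). With edgeR under scaling by library totals Runx3 was called lower (-0.317, adjusted p = 0.0007).

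Most genes of the primary granule list fell, and most of the secondary and tertiary granule list rose. Primary granules form in promyelocytes, and 14 of 16 tested primary granule genes were lower (median -1.87), with sums of 12690 and 3378 CPM. Elane (chr10:79886247-79888215), neutrophil elastase, measured 1481, 1354, 1519 and 1457 CPM in the DMSO libraries and 1.96, 3.74, 0.311 and 0.976 CPM in the PF-9363 libraries (-9.66 ± 0.25, adjusted p = 2.07e-09). Mpo (chr11:87793581-87804413), myeloperoxidase, measured 2600, 2055, 2568 and 2058 and 7.31, 11.6, 2.49 and 4.01 CPM (-8.49 ± 0.34, adjusted p = 4.05e-07). Both were nearly lost in every treated library. Prtn3, Prss57, Nkg7 and Ms4a3 changed by -7.14, -4.93, -4.61 and -4.47. Ctsg, the protease cathepsin G, fell less, from 1060, 946, 1092 and 938 CPM to 351, 398, 282 and 269 CPM (-1.63 ± 0.12). The members called higher were Igsf6 (0.33 ± 0.06) and the protease inhibitor Cst7 (0.15 ± 0.06, adjusted p = 0.0263). With scaling by library totals Igsf6 was not called, and Cst7 became -0.08 and was not called. The call of Cst7 was also lost without DMSO library 1 or 2 or PF-9363 library 1 or 2 (adjusted p from 0.0525 to 0.078).

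Secondary and tertiary granules form later, in myelocytes and mature neutrophils, and 15 of 22 tested genes were higher and 1 lower (median 0.94). The formyl peptide receptors Fpr2 and Fpr1, which sense bacteria, rose most: Fpr2 from 11.8, 8.68, 7.96 and 11.8 to 113, 109, 116 and 138 CPM (3.56 ± 0.11, adjusted p = 5.66e-18) and Fpr1 from 9.32, 10.98, 7.96 and 10.6 to 94.9, 90.6, 127 and 123 CPM (3.48 ± 0.13, adjusted p = 1.48e-14). Lcn2, an iron-scavenging granule protein, and the collagenases Mmp8 and Mmp9 rose by 2.51, 1.86 and 2.33, and lactoferrin, Ltf, by 1.11. The exception was Camp, an antimicrobial peptide, which fell from 92.4, 76.5, 91.5 and 95.1 to 20.3, 20.5, 18.99 and 20.4 CPM (-2.15 ± 0.09, adjusted p = 1.02e-18). Under scaling by library totals 13 members of the list were higher and 5 lower. Macrophage genes also rose, as given below, and their part in the rise of this list was not tested. In bulk RNA fewer cells of a type and less RNA per cell cannot be told apart, here and in all lists of cell type genes.

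Eosinophil genes were mostly lower, 8 of 11 tested, with 3 higher (median -1.29). The ribonucleases Ear1 and Ear2 fell, with log2 fold changes of -4.54 ± 0.17 and -3.34 ± 0.14, although these are near copies whose reads counting may split. Epx, the eosinophil peroxidase, went from 228, 204, 153 and 160.1 to 34.7, 38.9, 26.6 and 31.1 CPM (-2.50 ± 0.17). The surface lectin Siglecf fell by 1.81. The genes called higher were Ccr3 (1.74 ± 0.19), Alox15 (1.44 ± 0.18) and Il1rl1 (2.77 ± 0.09), of which Ccr3 and Il1rl1 are also expressed by basophils and mast cells.

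Macrophage genes rose. Of 22 tested, 19 were higher and 1 lower (median 2.74, against -0.04 for all tested genes), and their summed level went from 2443 to 14420 CPM. Fcgr1, the high-affinity IgG receptor, went from 0.893, 1.10, 0.656 and 0.544 CPM in the DMSO libraries to 25.03, 27.97, 29.4 and 20.9 CPM in the PF-9363 libraries (5.001 ± 0.21, adjusted p = 1.13e-18). Msr1, a scavenger receptor, went from 8.33, 11.3, 9.55 and 11.1 to 98.9, 97.5, 123 and 128 CPM (3.47 ± 0.11, adjusted p = 9.73e-19). Lyz2, the lysozyme of myeloid cells, was at 1241, 1210, 1355 and 1375 CPM with DMSO and 7496, 6064, 6852 and 6786 CPM with PF-9363 (2.39 ± 0.07). All 3 genes were higher in every treated library than in any control. Csf1r, the receptor that macrophages need to survive, and Adgre1, the F4/80 antigen, rose by 2.77 and 2.62. The mannose receptor Mrc1 was at 200 to 250 CPM with DMSO and 1795 to 2275 CPM with PF-9363. Gpnmb, a membrane protein of phagocytes, was at 161 to 219.8 CPM with DMSO and 1583 to 2076 CPM with PF-9363. The complement genes C1qa, C1qb and C1qc rose by 2.82, 2.73 and 1.99, from low levels. Not every macrophage gene moved this way: Cd163, a haemoglobin receptor, fell from 0.992, 1.60, 1.87 and 2.90 to 0.206, 0.129, 0.623 and 0.217 CPM (-2.70 ± 0.52), and Cx3cr1 was not called (-0.43 ± 0.36). Markers that all blood cells share, such as Ptprc and Cd53, also rose with PF-9363, 8 of 8 tested, from 2957 to 6152 CPM in sum, and their part in the rise of the macrophage genes was not tested.

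Of 15 tested dendritic cell and MHC class II genes, 11 were higher and 2 lower (median 2.25). Cd86 and Cd40, which activate T cells, rose most: Cd86 from 3.47, 3.89, 2.53 and 2.72 to 37.8, 42.0, 45.1 and 61.6 CPM (3.89 ± 0.17, adjusted p = 7.59e-15) and Cd40 from 0.198, 0.699, 1.03 and 0.635 to 6.28, 6.83, 8.87 and 6.40 CPM (3.42 ± 0.31, adjusted p = 7.74e-11). Cd80, Cd83 and Ccr7 rose by 2.81, 2.43 and 2.25, and Itgax, the CD11c integrin, by 2.94. Of the class II molecules H2-Aa and H2-Eb1 rose by 1.26 and 1.02, while H2-Ab1 was not called (0.04 ± 0.10). Cd74, the class II invariant chain, rose by 2.70 ± 0.09. Flt3, a cytokine receptor of progenitors, fell from 2.98, 3.89, 1.69 and 2.09 to 1.13, 0.516, 0.623 and 0.542 CPM (-1.86 ± 0.39), and H2-DMb1 fell by 0.27 ± 0.11 (adjusted p = 0.0215), a call lost when DMSO library 4 or PF-9363 library 3 or 4 was left out (adjusted p = 0.0889, 0.0517 and 0.134). DESeq2 did not call H2-DMb1 either (adjusted p = 0.0517). Xcr1, Clec9a, Zbtb46 and Siglech, which define dendritic cell types, were too low to be tested.

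Mast cell and basophil genes rose, 18 of 20 tested with none lower (median 2.11), and their sum went from 1838 to 7433 CPM. Fcer1a, the chain of the IgE receptor that binds IgE, went from 23.7, 28.6, 30.2 and 35.9 to 228, 252, 272 and 275 CPM (3.11 ± 0.10, adjusted p = 5.54e-16). Tpsab1, a tryptase with a near copy in Tpsb2, went from 0.496, 0.998, 0.468 and 1.36 to 10.3, 10.8, 10.9 and 14.8 CPM (3.79 ± 0.27, adjusted p = 2.1e-13), and Tpsb2 rose by 2.28 ± 0.18. Cpa3, the mast cell carboxypeptidase, was at 370.0, 430.2, 445 and 435 CPM with DMSO and 2299, 2506, 2885 and 3029 CPM with PF-9363 (2.67 ± 0.08). In these 3 genes no treated library overlapped with a control. Kit, the receptor for SCF, and Hdc, which makes histamine, rose by 1.45 and 1.37. The basophil protease Prss34 rose by 0.77 ± 0.08. Il4 rose from 1.19, 2.10, 2.06 and 1.81 to 9.58, 8.89, 11.8 and 8.79 CPM (2.43 ± 0.22).

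Of 12 tested genes of erythroid cells and megakaryocytes 8 were higher and 2 lower (median 0.82). Vwf and Itga2b, which platelets use to adhere and aggregate, rose from 26.3, 44.7, 23.9 and 33.0 to 212, 196, 219.6 and 250.2 CPM (2.78 ± 0.20) and from 33.4, 28.3, 35.97 and 31.6 to 199, 196, 212 and 204 CPM (2.65 ± 0.07). Defining genes of red cells such as Alas2, Slc4a1 and Epor were too low to be tested, with 0 to 8 counts in each library. Ppbp, a platelet chemokine, fell by 0.82 ± 0.21, and Nfe2 fell by 0.15 ± 0.06 (adjusted p = 0.0308), a call lost without DMSO library 1, 3 or 4 or PF-9363 library 3 or 4 (adjusted p from 0.0593 to 0.135). Nfe2 was also not called by DESeq2 (adjusted p = 0.0739) or by edgeR with RLE size factors (adjusted p = 0.0713).

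Lysosome genes rose together. Of 25 tested, 23 were higher and none lower (median 1.36), and their sum went from 6724 to 30230 CPM. Atp6v0d2, a subunit of the proton pump that is known from macrophages and osteoclasts, went from 18.9, 17.2, 20.1 and 24.95 to 385, 348, 454 and 457 CPM (4.33 ± 0.12, adjusted p = 4.21e-13). Ctsb, cathepsin B, went from 637, 622, 650.3 and 732 to 5011, 4485, 5579 and 5456 CPM (2.96 ± 0.08, adjusted p = 4.23e-23), with a stretch of exon that lies opposite Fdft1. Psap (chr10:60277627-60302597), the precursor of the saposins that help break down sphingolipids, made the largest gain of all genes in CPM, from 1375, 1474, 1449 and 1573 to 9373, 9007, 10570 and 10670 CPM (2.75 ± 0.07, adjusted p = 4.34e-23). All 3 rose in every treated library. Ctsd and Ctsl, whose products are cathepsins D and L, rose by 2.54 and 2.73. Tfe3 and Tfeb, transcription factors of lysosome genes, rose by 1.55 ± 0.08 and 0.86 ± 0.11. Iron storage genes, named for their gain in CPM, moved alike: Fth1 went from 422, 412, 422 and 447 to 3607, 3316, 4225 and 4217 CPM (3.17 ± 0.08) and Ftl1 from 2228, 2211, 2248 and 2372 to 6795, 6866, 8233 and 8756 CPM (1.76 ± 0.08). Both ferritin genes have many processed copies in the genome, so their counts are uncertain. Macrophage markers rose beside the lysosome genes, as given above, and their part in this rise was not tested.

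Cytokine, chemokine and NF-kB feedback genes were higher in all 20 tested cases (median 2.41), and their sum went from 1779 to 8144 CPM. Il1a, an alarm cytokine, went from 1.19, 1.30, 1.59 and 0.907 to 15.1, 15.6, 18.8 and 22.3 CPM (3.84 ± 0.21, adjusted p = 7.26e-16). Csf1, the growth factor of macrophages, went from 40.4, 43.4, 43.4 and 38.8 to 342, 336, 407 and 408 CPM (3.17 ± 0.08, adjusted p = 1.49e-23). The chemokine Ccl6 was at 857, 915, 916 and 1045 CPM with DMSO and 4203, 4259, 5248 and 5443 CPM with PF-9363 (2.36 ± 0.09). None of these overlapped between groups. Tnf and Il6 rose by 3.02 and 1.89, Ccl2, Ccl3 and Ccl4 by 3.15, 2.10 and 2.48, and the NF-kB brakes Nfkbia and Tnfaip3 by 1.73 and 2.205. Early response and heat shock genes divided, with 12 of 17 higher and 3 lower (median 1.17). Atf3, a stress transcription factor, rose from 9.12, 10.2, 9.65 and 11.7 to 89.8, 87.5, 105 and 113 CPM (3.28 ± 0.10) and Egr3 from 2.78, 2.79, 3.56 and 2.72 to 18.95, 17.0, 17.1 and 15.6 CPM (2.53 ± 0.16). The 3 that fell were chaperones: Hsp90aa1 went from 1020, 981, 994 and 923 to 299, 294, 297 and 316 CPM (-1.70 ± 0.06), Hspa8 changed by -0.45 ± 0.06 and Dnajb1 by -0.44 ± 0.09.

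Adhesion and matrix genes rose in 18 of 24 tested cases and fell in 3 (median 0.73). Mmp14, a membrane-bound matrix protease, went from 0.298, 0.898, 1.41 and 1.63 CPM to 68.4, 46.2, 55.1 and 54.8 CPM (5.69 ± 0.22, adjusted p = 6.87e-14) and Icam1, a ligand of leukocyte integrins, from 19.6, 14.5, 21.8 and 18.2 to 121, 102, 116 and 111 CPM (2.60 ± 0.10). The integrins Itgam, Itgb1, Itgb2, Itgb3 and Itgb7 rose by 1.34, 1.35, 1.28, 1.46 and 1.77. Fibronectin, Fn1, moved the other way, from 72.5, 105, 96.0 and 120.1 to 2.99, 3.22, 3.58 and 4.66 CPM (-4.76 ± 0.20, adjusted p = 1.43e-10). Of 15 tested interferon-stimulated genes 11 were higher and 2 lower (median 0.73). Usp18, a brake on interferon signalling, went from 1.29, 1.90, 1.499 and 1.81 to 12.5, 11.7, 12.0 and 14.6 CPM (2.96 ± 0.20) and the chemokine Cxcl10 from 0, 0.399, 0.656 and 0.363 to 1.96, 2.32, 2.80 and 2.28 CPM (2.65 ± 0.47). The antiviral gene Ifit2 fell by 2.37 ± 0.30 and the RNA sensor Ifih1 fell by 0.66 ± 0.13.

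Glycolysis genes fell in 18 of 20 tested cases, with none higher (median -1.14), and their sum went from 23430 to 9412 CPM. The largest fall was in Aldoc, an aldolase, from 83.3, 98.4, 82.7 and 131 to 9.06, 11.3, 7.16 and 7.70 CPM (-3.48 ± 0.21, adjusted p = 2.48e-07). Pgk1, phosphoglycerate kinase, went from 2335, 2297, 2390 and 2678 to 411, 401, 418 and 412 CPM (-2.56 ± 0.06, adjusted p = 2.13e-23). Ldha, which makes lactate, went from 2116, 1993, 2157 and 2174 to 474, 477, 494 and 463 CPM (-2.15 ± 0.06). In each of the 3 the treated libraries lay far below the controls. Eno1 and Gapdh, also named for their loss in CPM, changed by -1.58 ± 0.06 and -0.94 ± 0.06. Both have processed copies in the genome, so their counts are less certain. The glucose importer Slc2a1 fell by 0.84 ± 0.07.

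All 21 tested cholesterol synthesis genes were lower (median -1.46). Fdps, which makes farnesyl diphosphate, went from 19.4, 21.6, 24.5 and 23.7 to 3.71, 3.22, 4.67 and 1.95 CPM (-2.75 ± 0.18, adjusted p = 2.82e-14) and Pmvk, an enzyme before it in the pathway, from 36.4, 33.9, 38.8 and 43.1 to 11.7, 10.7, 6.23 and 6.72 CPM (-2.08 ± 0.15, adjusted p = 5.07e-11). Srebf2, the transcription factor of the pathway, fell by 0.99 ± 0.06. Scd2, a fatty acid desaturase named for its loss in CPM, went from 1636, 1734, 1571 and 1748 to 272, 271, 248 and 227 CPM (-2.72 ± 0.07). The cholesterol exporter of the lysosome, Npc1, rose by 2.09 ± 0.06. The list medians in PF-9363 libraries 1 to 4 were -1.17, -1.35, -1.68 and -1.59.

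Genes of protein synthesis moved less. Of 24 tested ribosome biogenesis genes 16 were lower and 3 higher (median -0.43). The largest falls were in Dkc1, which modifies ribosomal RNA, from 88.6, 91.1, 87.7 and 78.7 to 31.0, 30.8, 27.7 and 25.9 CPM (-1.58 ± 0.08, adjusted p = 3.03e-16), and in Polr1b, a subunit of RNA polymerase I (-1.24 ± 0.16). Rrp9, Ddx21 and Gnl3 were higher by 0.37, 0.36 and 0.26, and under scaling by library totals none of the list was higher. The call of Gnl3 was also lost without DMSO library 4 or PF-9363 library 4 (adjusted p = 0.0517 and 0.0555). Cytosolic ribosomal protein genes were lower in 20 of 22 tested cases, with none higher (median -0.40), the largest falls being Rpl3 (-0.80 ± 0.06) and Rps2 (-0.75 ± 0.06). Many ribosomal protein genes have pseudogene copies, so single members are uncertain. Nuclear genes of the respiratory chain were mixed, 4 of 22 higher and 8 lower (median -0.04, with 15 lower under scaling by library totals). Both catalytic subunits of succinate dehydrogenase were higher, Sdhb by 0.70 ± 0.08 and Sdha by 0.54 ± 0.06, and Ndufa9 was lower by 0.65. All 7 tested mitochondrial genes of the chain were higher (median 0.67), with mt-Nd1 at 662 to 770.3 CPM with DMSO and 1185 to 1253 CPM with PF-9363.

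Amino acid and unfolded protein stress genes were higher in 14 of 20 tested cases and lower in 6 (median 0.60). Slc7a11, which imports cystine, went from 24.1, 26.04, 22.7 and 25.04 to 254, 189, 289.7 and 334 CPM (3.45 ± 0.19, adjusted p = 1.24e-06) and Ddit3, the stress factor CHOP, from 19.2, 16.3, 20.5 and 22.7 to 168, 169.8, 183 and 163 CPM (3.11 ± 0.08, adjusted p = 8.17e-23). Trib3 and Sesn2, also targets of the stress factor Atf4, rose by 3.10 and 1.86, and Atf4 itself by 0.55 ± 0.06. The serine pathway moved against them: Psat1 fell by 1.00 ± 0.06 and Shmt2 fell by 0.91 ± 0.07. In the unfolded protein arm Sdf2l1 fell from 115, 96.1, 117 and 105 to 54.1, 49.5, 50.1 and 47.8 CPM (-1.10 ± 0.08) and Pdia4 rose by 0.99 ± 0.06. BCL2 family genes rose in 8 of 12 tested cases and fell in 2 (median 0.65). Bcl2, which protects cells from death, went from 13.8, 20.2, 13.4 and 16.8 to 60.1, 63.9, 74.1 and 78.7 CPM (2.11 ± 0.12, adjusted p = 2.66e-13), and Bcl2a1d, one of several near copies, rose by 3.50 ± 0.13. Mcl1 and Bcl2l1, also protective, rose by 0.78 and 0.78, as did Bcl2l11, which promotes death (1.10). Bmf and Bcl2l13 fell, with log2 fold changes of -0.49 and -0.55.

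None of the 5 MYST enzymes, the inhibitor's target family, was called lower under TMM scaling. Kat6a went from 96.6, 109, 88.4 and 97.6 to 176, 195, 207 and 189.9 CPM (0.97 ± 0.07, adjusted p = 2.81e-13) and Kat6b from 18.4, 21.6, 17.0 and 18.9 to 25.2, 27.97, 29.4 and 31.5 CPM (0.59 ± 0.11, adjusted p = 2.09e-05). Kat5 (0.18 ± 0.09), Kat7 (-0.12 ± 0.07) and Kat8 (-0.01 ± 0.12) were not called, although Kat5 was called higher without DMSO library 4 or PF-9363 library 3 or 4 (adjusted p = 0.0193, 0.0445 and 0.0366). Kat5 was also called higher by DESeq2 (0.208, adjusted p = 0.0403) and by edgeR with RLE size factors (0.208, adjusted p = 0.0301). Over 26 tested MYST enzymes and complex members 14 were higher and 2 lower (median 0.41). Jade2, a scaffold of Kat7, went from 14.6, 14.1, 13.9 and 17.96 to 40.8, 43.1, 48.6 and 43.6 CPM (1.53 ± 0.11) and Epc1, a scaffold of the Kat5 complex, from 27.9, 25.9, 24.3 and 25.5 to 72.6, 68.3, 73.3 and 70.2 CPM (1.46 ± 0.08). Brpf3, another scaffold, rose by 1.35 ± 0.09, and its relative Brpf1 was not called (-0.08 ± 0.07). Msl3 and Mcrs1, of the Kat8 complexes, fell, with log2 fold changes of -0.61 ± 0.09 and -0.35 ± 0.10. Under scaling by library totals 8 members were lower, Kat7 (-0.35) and Brpf1 (-0.31) among them, and the median was 0.18. Of 27 other acetylation genes tested, 11 were higher and 13 lower (median -0.43), beside 36.6% and 39.4% of all tested genes. Crebbp, a broad acetyltransferase, went from 32.4, 43.2, 29.3 and 37.1 to 130.3, 139, 134 and 152 CPM (1.97 ± 0.09) and its partner Ep300 rose by 1.04 ± 0.07. Hat1, which acetylates newly made histone H4, went from 113, 89.8, 120.2 and 113 to 34.3, 32.6, 37.1 and 25.8 CPM (-1.75 ± 0.10), and Yeats2, a reader of histone acetylation, fell by 1.74 ± 0.11. The deacetylases Hdac1, Hdac2 and Hdac3 fell, with log2 fold changes of -0.56, -1.14 and -0.58, and Hdac4 rose by 1.31 ± 0.08.

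The single genes with the largest rises had little or no message in control cells. Foxd1 (chr13:98354242-98359305), a forkhead factor of the embryonic kidney stroma, had 0 counts in all DMSO libraries and 22, 17, 56 and 77 counts after PF-9363, a rise of at least 18.8-fold against a floor of 3 counts per library. Its level was lower in PF-9363 libraries 1 and 2 than in 3 and 4. Mcoln3 (chr3:146117450-146141806), a channel of endosomes and lysosomes, had 1, 2, 3 and 1 counts with DMSO and 99, 53, 93 and 124 counts with PF-9363, at least 39.2-fold higher. Ms4a14 was at least 27.2-fold higher. Aldh1a2, which makes retinoic acid, went from 0.298, 0.399, 0 and 0.0907 to 14.9, 12.9, 17.0 and 22.1 CPM (6.36 ± 0.34, adjusted p = 3.15e-15). Acod1, which makes the antimicrobial metabolite itaconate in activated macrophages, went from 1.09, 1.30, 1.69 and 0.907 to 65.8, 52.2, 52.8 and 63.6 CPM (5.55 ± 0.16, adjusted p = 2.79e-22). Slc11a1, a metal transporter of phagosomes, rose by 5.39 ± 0.14, and Avil, an actin-binding protein whose exons overlap Tsfm, by 5.53 ± 0.13. In all, 7 genes had at most 3 counts in every DMSO library and a mean of at least 5 CPM with PF-9363.

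In the other direction 15 genes had at most 3 counts in every PF-9363 library and at least 5 CPM with DMSO. Mgarp (chr3:51388412-51396738), a mitochondrial protein induced by low oxygen, had 116, 164, 135 and 200 counts with DMSO and 0 with PF-9363, at least 40.5-fold lower. Tmem119 (chr5:113793729-113800516), known as a marker of microglia and bone-forming cells, had 260, 280, 253 and 370 counts and 2, 0, 0 and 1 counts, at least 76.6-fold lower. Smtnl2 and Plekhh2 were at least 17.8-fold and 17.0-fold lower. Also in this class was Cd79b, a B-cell receptor chain (at least 21.3-fold). Fcnb, a pattern receptor of granulocyte precursors, went from 115, 111, 136 and 147 to 0.824, 0.645, 0.623 and 0.434 CPM (-7.62 ± 0.16, adjusted p = 5.09e-24). Among abundant genes Ptma, prothymosin, which dividing cells express strongly and which has many processed copies, went from 3034, 2371, 2963 and 2921 to 727, 726, 715 and 648 CPM (-2.004 ± 0.07). Chil3, a secreted lectin, rose from 17860, 20260, 17440 and 18250 to 24780, 26430, 23940 and 27020 CPM (0.47 ± 0.07, adjusted p = 5.41e-07), and Actb rose by 0.98 ± 0.07.

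**Figure D4:**
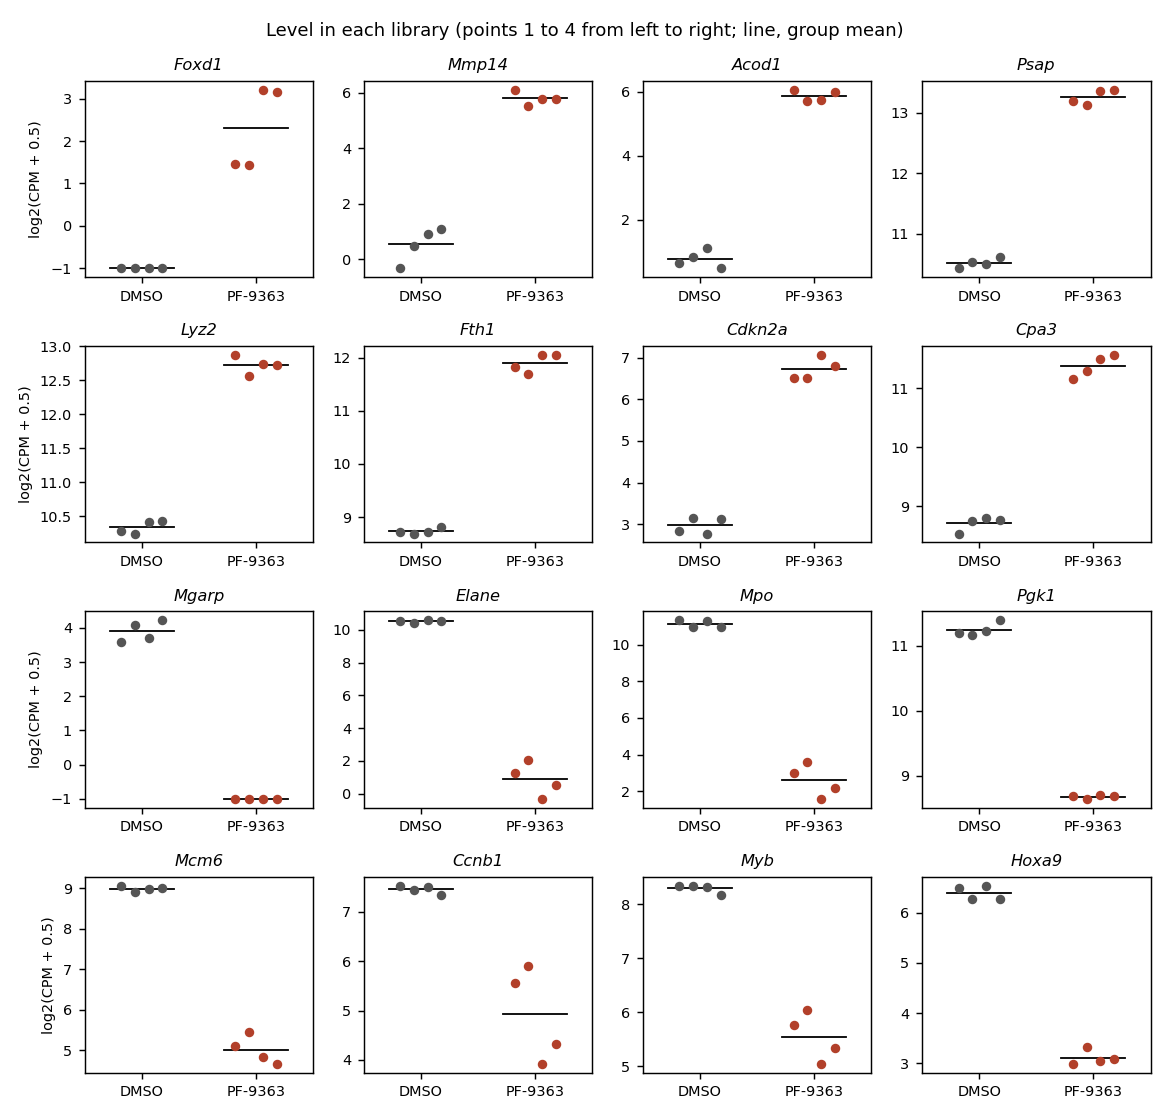
Level of 16 genes in each library as log2(CPM + 0.5) (y axes, with a scale of its own for each gene), with grey points for DMSO and red points for PF-9363, libraries 1 to 4 from left to right, and a line at the group mean of the plotted values. No gene's groups overlap; Foxd1 and Ccnb1 show PF-9363 libraries 1 and 2 apart from 3 and 4.

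The same genes were then read in the separate experiment that compared SETBP1-D868N with luciferase, which shares no library with this one. There 7448 of 15794 tested genes, 47.2%, were called, 24.5% higher and 22.7% lower with SETBP1-D868N. Of those calls 51.9% were higher, and 62.1% under scaling by library totals. In 56.7% of tested genes the 3 and 3 libraries did not overlap. Of the 16 genes named above for the size of their rise with PF-9363, 15 were tested there: none was called higher with SETBP1-D868N, 12 were lower and 3 were not called. Of the 14 named for the size of their fall, 4 were higher with SETBP1-D868N (Elane, Mpo, Prtn3 and Ptma), 8 were lower and 2 were not called. Hoxa9 was 4.03 with SETBP1-D868N (log2 fold change, adjusted p = 7.25e-11) and -3.37 with PF-9363, and Hoxa10 was 5.95 and -2.03. Myb was 0.82 and -2.71, and Myc 0.48 and -2.55. Elane was 0.34 and -9.66, and Mpo 0.40 and -8.49. For these 6 genes the 2 differences had opposite signs.

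By list the pattern was uneven. Macrophage genes had a median of -0.62 with SETBP1-D868N (none higher, 18 lower) and 2.74 with PF-9363, and all 22 secondary and tertiary granule genes were lower with SETBP1-D868N (median -0.67), against 0.94. DNA replication genes were higher with SETBP1-D868N in 22 cases and lower in 1, by a median of only 0.19, against -2.51 with PF-9363. For glycolysis both medians were below 0, -0.30 with SETBP1-D868N (2 higher, 15 lower) and -1.14 with PF-9363. Aldoc was -1.16 and -3.48, and Pgk1 -0.42 and -2.56, 2 genes lower in both comparisons. Eosinophil genes were also below 0 in both. The experiments differ in RNA input and library preparation. They also differ in counts of the Y-linked gene Ddx3y, 2316 to 2561 in each luciferase and SETBP1-D868N library and 0 in each DMSO and PF-9363 library. No difference between their effects was tested.

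**Figure D5:**
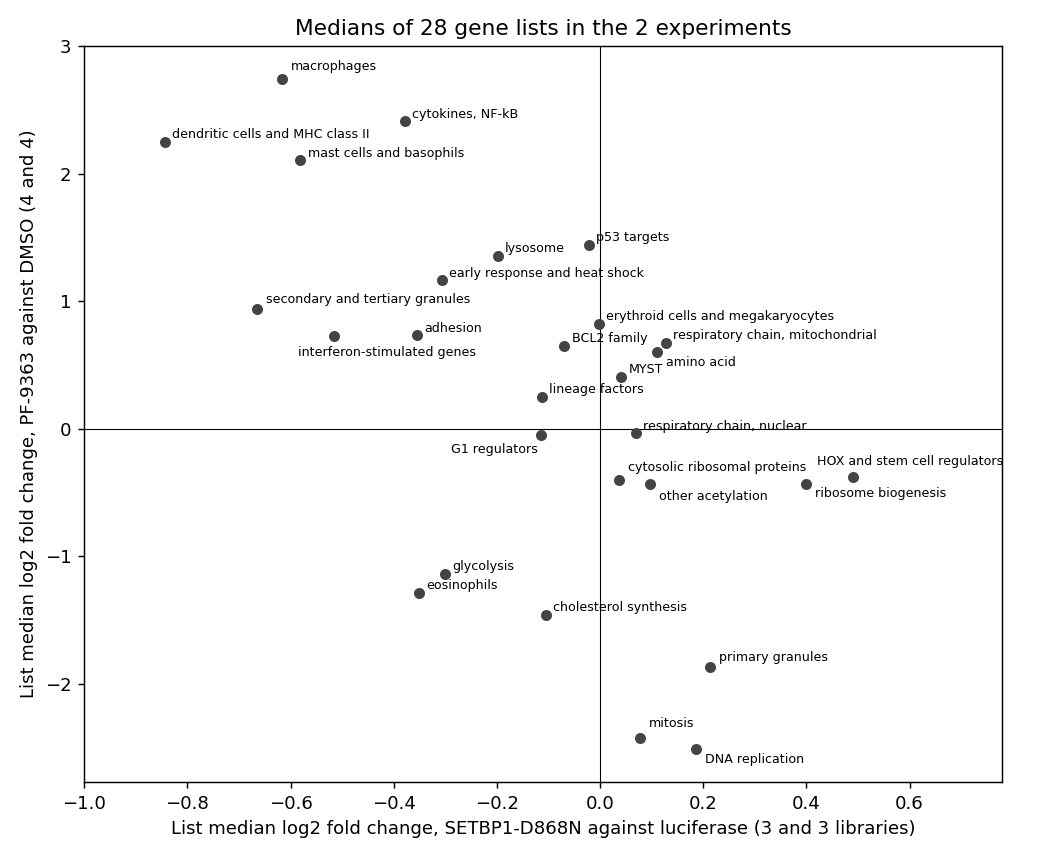
Median log2 fold change of 28 gene lists with SETBP1-D868N against luciferase (x axis, 3 and 3 libraries) and with PF-9363 against DMSO (y axis, 4 and 4 libraries), 1 point per list. Macrophage, dendritic cell and mast cell lists lie at the upper left, DNA replication, mitosis and primary granules at the lower right, and glycolysis, eosinophils and cholesterol synthesis at the lower left.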

How the data were processed

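Messenger RNA was sequenced in 8 libraries of SETBP1-D868N cells, 4 with DMSO and 4 with PF-9363, grouped by their titles. Each experiment has 1 table of raw counts over 55367 gene symbols, as the authors deposited it. The submitters' processing notes name STAR, DESeq2, GRCm38 and mm10 without saying how each was used, and the counting program, annotation and strand handling are not given in the sources used here. Reads of overlapping, antisense or near-identical genes may therefore be split or mixed. Of the tables' columns 0 were left unmapped, and every row names a gene.

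Low genes were removed with edgeR 4.0.16 in R 4.3.3 (filterByExpr, minimum count 10, minimum total 15), which left 13456. Libraries were scaled by TMM and printed as CPM. Groups were compared by edgeR's quasi-likelihood test with robust estimation and the group as the single factor, with Benjamini-Hochberg adjustment over all tested genes and a call at 0.05. The other experiment was fitted alike on its own 15794 genes. Standard errors are the absolute log2 fold change over the square root of F. Where every library of a group held at most 3 counts, the fold is a lower bound against that floor. Intervals at a count of 0 cover counting error only, since reads are not independent molecules. Library measures were compared by exact permutation tests (SciPy 1.17.1 in Python 3.11.15). Figures were drawn with matplotlib 3.10.9.

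The comparison, the gene lists and their members were chosen with earlier results of these data known, so lists carry counts and medians and no p of their own. Of the genes named, 8 per direction had the largest fold change and 8 the largest difference of mean CPM among called genes with a symbol that is not a clone name, at least 5 CPM on average in 1 group and no overlap. Each list gives up to 2 called members per direction with the largest fold change, and other members as plain values. Further members are counted in their lists and not named. The 5 genes with the largest spread in each group were also drawn, and single genes of the class with almost no counts in 1 group were picked after their values were seen. Gene positions are those of GENCODE M21 on GRCm38, matched by symbol for 13195 tested genes (98.1%). Alternatives were DESeq2 1.42.0, voom of limma 3.58.1, other scalings and filters, non-robust fits, a replicate block and leaving out each library. Leaving out 2 PF-9363 libraries together was added after seeing the data.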

Additional observations from a re-analysis of the deposited data

Results flagged for a closer look

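Sets of 4 libraries were checked for the genes named in the text or picked by its naming rule, and for 5 library measures. A library lay apart from the other 3 where its gap to its neighbour over the range of the 4 passed Dixon's 95% critical value. This held in 25 of 508 sets, all of them sets of a gene's levels. Chance gives this in about 1 of 20 sets, or 25.4 here. The values below are CPM in the library that stood apart. With DMSO, library 4 stood apart with Itgam at 270.5, Lcn2 at 524.2, Mmp9 at 79.5 and Tnfaip3 at 19.8, all above the other 3, and with Myb at 287.6, below them. DMSO library 2 stood apart with Cdkn2c at 41.7, Gm44662 at 3.39, Kat8 at 13.8, Nfe2 at 256.5, Plekhh2 at 8.18 and Ptma at 2371. In DMSO library 3 Ccr7 was at 3.37 and Egr3 at 3.56, and in DMSO library 1 Il6 was at 8.63. PF-9363 library 1 stood apart with Actb at 4721, Atp6v0c-ps2 at 21.6, Hdac1 at 138.7, Pdgfrb at 6.39 and Polr1b at 17.6. With PF-9363, Camp at 18.99 and Psat1 at 156.0 stood apart in library 3, and Tpsab1 at 14.8 and Ptma at 647.6 in library 4. Cd79b at 0.217 in library 4 and Plekhh2 at 0.129 in library 2 were the only libraries of their group with any count.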

How the results depend on the processing

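The counts of called and of at least 2-fold changed genes stayed within 1.5 times their reported values under every alternative run, and no list median with PF-9363 changed sign under another scaling. Leaving out 1 library at a time gave 4823 to 4959 genes higher and 5190 to 5302 lower. Leaving out PF-9363 libraries 1 and 2 together gave 4807 and 5205, and libraries 3 and 4 together 4697 and 5004. DESeq2 called 4982 higher and 5065 lower. Of 4479 values of single genes under the alternatives, 4398 kept direction and call, 49 lost a call, 19 gained one and 13 changed direction, in 23 of 249 genes. With scaling by library totals the direction changed for Cst7 (-0.079), H2-Ab1 (-0.186) and Kat5 (-0.046). With 1 library left out at a time H2-Ab1 was -0.016 to 0.127 and Kat8 -0.068 to 0.046. Kat8 was also 0.02 with DESeq2, 0.021 with RLE size factors and 0.038 without PF-9363 libraries 1 and 2. The cause of these changes was not tested. The labels do not say whether equal library numbers pair the samples, and the main test did not treat them as pairs. Deviations from the group means correlated by 0.0111, -0.0188, -0.0382 and -0.00662 for numbers 1 to 4. These values cannot decide whether cultures were shared, because the spread between libraries could hide a small common effect. A replicate block gave 4885 genes higher and 5239 lower, with 2131 and 2436 changed at least 2-fold. Depth limits genes under about 1 CPM, where 3 counts make up to 0.424 CPM by unscaled library totals.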

Other observations

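The share of genes called was higher for protein-coding genes, 78.4% of 11367, than for long non-coding genes, 62.3% of 1314. By exon length it went from 68.2% in the shortest of 5 equal classes to 80.4% in the longest. Over 10 equal classes of abundance it went from 60.8% in the lowest to 87.6% in the highest. Genes at least 2-fold lower made 32.8% of the lowest class and 7.21% of the highest, while genes at least 2-fold higher made 22.5% of the lowest and 21.9% of the highest.

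The genes that varied most within a group were, in DMSO, Erdr1, Gm44662, Ubb-ps, Gm4617 and Kcnq1ot1 and, with PF-9363, Ubb-ps, Atp6v0c-ps2, Prtn3, Foxd1 and Ccnb1. Igll1 and Lepr, a B-cell precursor gene and the leptin receptor, were below the filter, with 3 to 12 and 7 to 11 counts in the DMSO libraries and 0 in each PF-9363 library. All 8 libraries had counts of Xist and 0 counts of the Y-linked genes Ddx3y, Uty, Eif2s3y and Kdm5d, while the 6 libraries of the other experiment had counts of all 5.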
